A study of Chlorocebus sabaeus with 3 samples.

Results

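The limbus of the vervet monkey was set against its conjunctiva, gene by gene, on human expression arrays. The comparison used 15940 probe sets, groups of short probes that together read 1 transcript, out of 54675 on the array. Each had exactly 1 gene symbol, which holds for 41097 of them, and a value of at least 100 in the limbus or the conjunctiva. They covered 10656 genes of 19775 with such a probe set. At the edge of the choice, the probe set of GSG1L was just inside, with a limbal value of 80.2 and a conjunctival value of 100.0, and one of TBC1D5 was just outside, at 99.3 in the limbus. The series consists of 3 arrays, 1 each for the limbus, the conjunctiva, and the cornea, and the cornea took no part in the choice. All tissue came from vervet monkeys (Chlorocebus sabaeus), for which no treatment is named in the sources used here, and the study describes taking its tissues from the same eye. The limbal sample was a narrow rim of epithelium with the upper stroma beneath it, and the conjunctival sample carried the underlying Tenon tissue. How many animals went into an array is not given in the sources used here.

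The limbus is the border where the stratified corneal epithelium, which is transparent and free of vessels, passes into the vascularized mucosa of the conjunctiva. Its basal layer is regarded as the seat of the stem cells that renew the corneal epithelium, and in pigmented eyes it holds melanocytes. The conjunctiva is a mucosa with goblet cells, which secrete gel-forming mucin, and with lymphoid and plasma cells that release antibodies into the tear film. Both samples mixed epithelium and stroma, so fewer cells of a type and less RNA per cell cannot be told apart in any value. With 1 array for each tissue there was no replicate error, so no difference is given an SD or a p-value. Values are intensities on a linear scale after RMA, a procedure that corrects background, brings arrays to a common distribution, and condenses the probes of a set. A gene was read from its brightest probe set of those chosen, and levels of different genes are not compared, since each set binds monkey RNA with its own efficiency. Where the probe sets of a gene are counted, only the chosen ones are meant.

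Most genes lay close to equality. The median log2 ratio of limbus to conjunctiva over the 10656 genes was -0.01, and the middle of the distribution, from the 25% to the 75% point, ran from -0.30 to 0.29. At least a 2-fold higher value in the limbus was found for 413 genes (3.88% of all), and in the conjunctiva for 372 genes (3.49%). At 4-fold the counts were 58 (0.544%) and 68 (0.638%), at 8-fold 13 (0.122%) and 15 (0.141%), and at 16-fold 3 (0.0282%) and 4 (0.0375%). These shares are the background against which the gene lists are read. Counted as probe sets, 636 (3.99%) were higher in the limbus and 512 (3.21%) in the conjunctiva. A probe set that entered through only 1 of the tissues is more likely to differ, and 1427 reached 100 in the limbus alone and 1401 in the conjunctiva alone. Among the 13112 at 100 or more in both tissues, 278 (2.12%) were higher in the limbus and 271 (2.07%) in the conjunctiva. With no minimum level, 912 of 41097 probe sets (2.22%) were higher in the limbus and 730 (1.78%) in the conjunctiva.

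**Figure D1:**
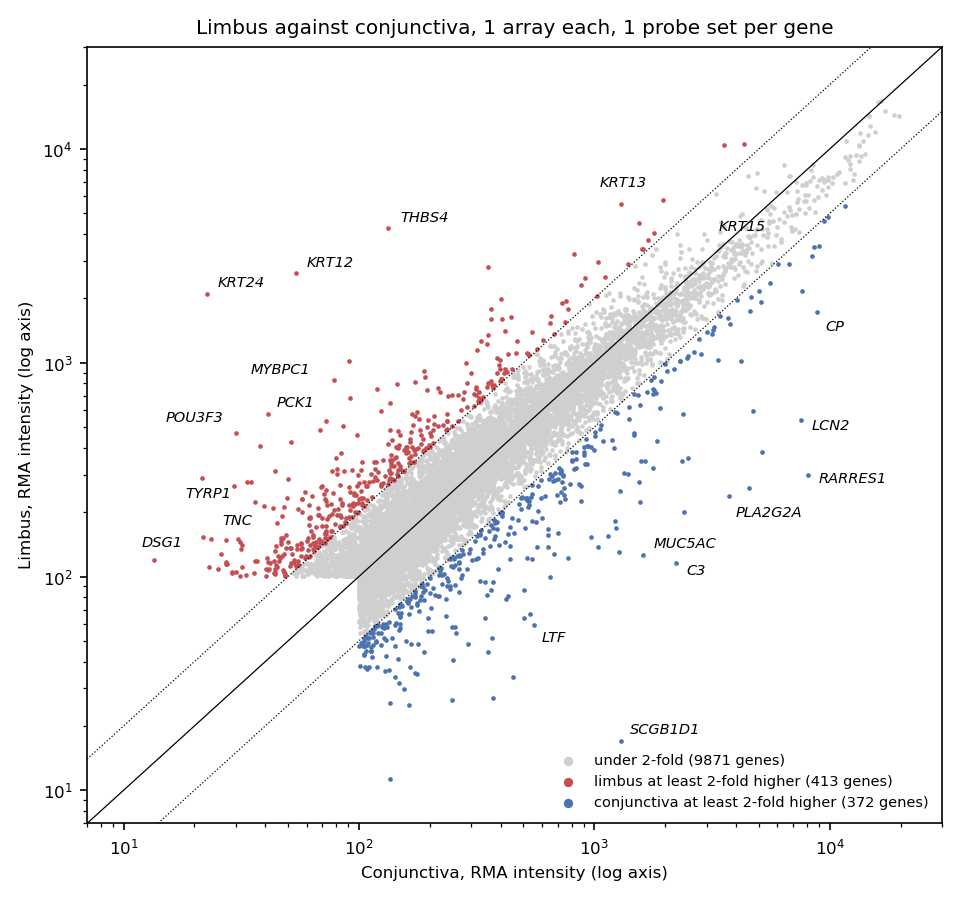
Limbus intensity (vertical) against conjunctiva intensity (horizontal) for 10656 genes, both axes logarithmic, with dotted lines at a 2-fold difference. Red points are the 413 genes at least 2-fold higher in the limbus and blue points the 372 higher in the conjunctiva; the empty lower left corner is the minimum value of 100, and the brightest genes drift below the diagonal.

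Among genes with a mean level of 200 or more the ratio moved with the level. The median log2 ratio was 0.06 from 200 to 500, -0.12 from 1000 to 2000, -0.27 from 2000 to 5000, and -0.38 for the 100 genes at 5000 or more. After quantile normalization, which gives both arrays the same distribution, the last of these was 0.04. The 813 genes with a mean level under 100 lay apart from this order, with a median of -0.22 that was -0.21 after quantile normalization, and 22.3% of them passed 2-fold, beside 6.39% of those from 100 to 200. Bright housekeeping families moved the same way. Of 52 cytosolic ribosomal protein genes, a family picked after its values were seen, 50 were lower in the limbus, with a median of -0.47, and after quantile normalization 32 were lower, with a median of -0.04. The 12 reference genes measured had a median of -0.27, which turned to 0.01 after quantile normalization and to 0.05 after scaling to the hybridization controls. Those controls, transcripts added to every sample in a fixed amount, had a geometric mean of 642 on the limbus array and 802 on the conjunctiva array. Scaling by them adds 0.32 to every log2 ratio, puts the median gene at 0.31, and changes the counts to 908 genes higher in the limbus and 166 in the conjunctiva. A difference under about 1 on the log2 scale in bright genes is therefore read with both scalings in mind. The 3′ to 5′ ratio of the GAPDH control was 3.12 on the limbus array and 3.83 on the conjunctiva array, and that of the ACTB control 11.8 and 10.3. The 3′ control probes thus read several times higher than the 5′ ones on both arrays, to a similar degree. RNA length itself was not measured here.

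The largest difference in favor of the limbus was that of KRT24, a type I keratin of differentiated epithelium. It measured 2105 in the limbus and 22.6 in the conjunctiva, a 93.2-fold difference, beside 4797 in the cornea. KRT12, the keratin of the corneal epithelium, measured 2632.5 and 54.3, which is 48.5-fold, beside 8068 in the cornea. THBS4, a thrombospondin of the extracellular matrix, measured 4252 and 132.5, which is 32.1-fold, beside 6934 in the cornea. These were the only genes past 16-fold in this direction. Among the other genes of the 15, the POU domain factor POU3F3 was at 471 in the limbus against 30.1, and the homeobox factor EMX2 at 278 against 33.4. In the cornea POU3F3 was at 1122 and EMX2 at 415, above the limbus. PCK1, an enzyme of gluconeogenesis, was at 578 against 41.1, and RBP4, the plasma carrier of retinol, was at 264.5 against 29.6. Their values in the cornea were 113 and 78.9, below those of the limbus. PID1, a phosphotyrosine interaction domain protein, was at 1015 against 90.4, and its second probe set had a log2 ratio of 1.24 beside 3.49 on the first. CNTNAP2, a neurexin family adhesion protein, was at 406 against 38.0, and the receptor phosphatase PTPRD at 428 against 51.4. PID1, CNTNAP2, and PTPRD were at 2196, 2441.5, and 867 in the cornea, above the limbus. Further sets of POU3F3, RBP4, PID1, CNTNAP2, and PTPRD, under 100 in both tissues, had log2 ratios between -0.28 and 0.82. Of the 15 genes with the largest ratios, THBS4 and SPRR1A alone exceeded 100 in the conjunctiva, so most of these ratios rest on a low conjunctival value. With 32 added to every value before division the log2 ratio of KRT24 was 5.29 in place of 6.54, that of POU3F3 3.02 in place of 3.97, and that of DSG1 1.74 in place of 3.15.

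In the other direction the secretoglobin SCGB1D1, a small secreted protein of lacrimal and other glands, led with 1304 in the conjunctiva and 17.1 in the limbus, a 76.4-fold difference. RARRES1, a retinoic acid responder, measured 8078 and 300, which is 27.0-fold, and its 3 probe sets lay between -4.75 and -3.91 on the log2 scale. C3, the central complement component, measured 2218 and 116, and C7, a component of the membrane attack complex, 250 and 26.4. PLA2G2A, a secreted phospholipase that acts on bacterial membranes, was at 3741 in the conjunctiva against 237. LCN2, which binds bacterial siderophores, was at 7557 against 541. LACRT, the tear protein lacritin, was at 371 against 27.0, and the iron-binding LTF, lactoferrin, at 553 against 59.3. The set also held epithelial genes and a receptor. CLCA1, a secreted protein of goblet cells, was at 1276 against 130, and CAPN9, a calpain of mucosal epithelia, at 453 against 33.9. ADRA1A, an alpha-adrenergic receptor, was at 136 against 11.3. That ratio rests on 1 probe set, since the other sets of ADRA1A, all under 100, had log2 ratios between -0.31 and 0.11. GUSBP11, a pseudogene at 4521 against 259, was read from a probe set whose probes match several transcripts, and its other probe set had a log2 ratio of 0.03, so its place in this order is uncertain. The immunoglobulin sets IGLC1 and IGLL3P, also among the 15, share probes with related segments.

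**Figure D2:**
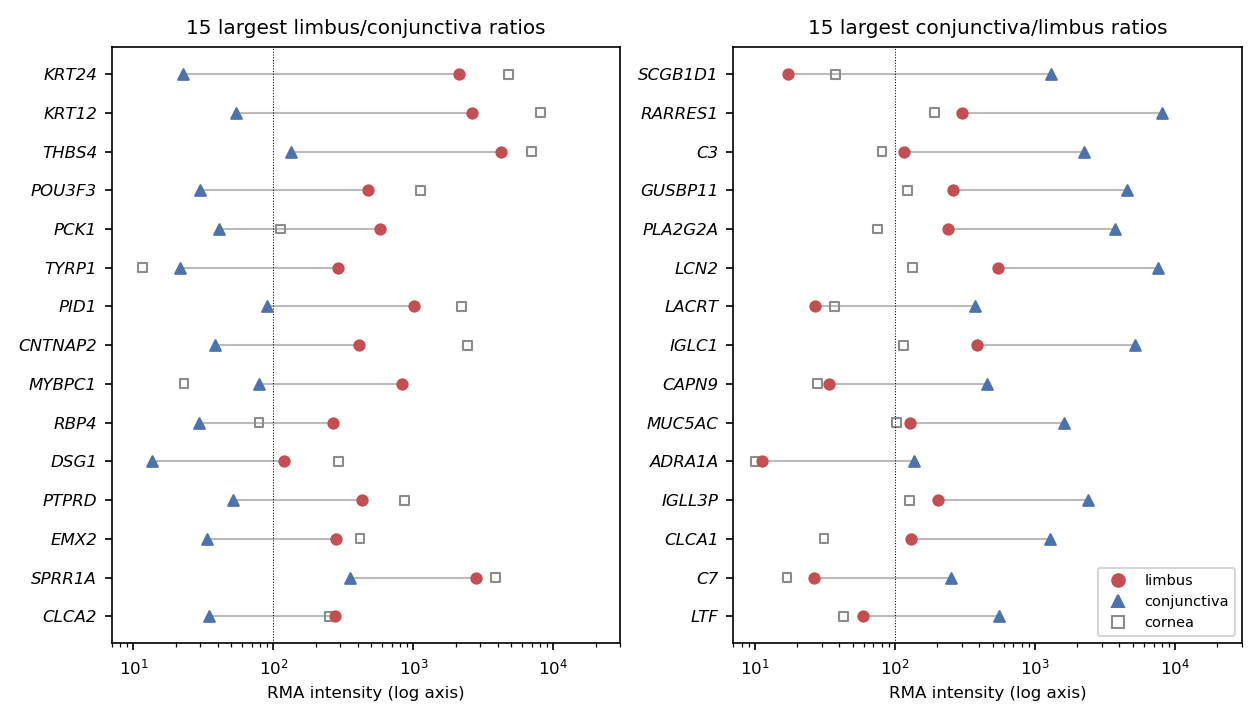
Intensity (horizontal, logarithmic) of the 15 genes with the largest ratio in each direction, for the limbus (circles), the conjunctiva (triangles), and, side by side only, the cornea (open squares), from 1 array each; the dotted line marks 100. KRT24 and SCGB1D1 have the widest gaps, at 93.2-fold and 76.4-fold, and most of the lower ends lie under 100.

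Genes of the corneal epithelium were higher in the limbus than in the conjunctiva without exception among those measured. Of 7 genes measured out of 8 listed, 6 were at least 2-fold higher and 0 lower, with a median log2 ratio of 1.505 beside -0.01 for all genes. The corneal keratin KRT3, the partner of KRT12, was at 174 in the limbus and 61.3 in the conjunctiva. ALDH3A1, the abundant aldehyde dehydrogenase of the cornea, was at 2949 and 1041, a 2.83-fold difference. The gap junction protein GJA1 was at 4485 and 1551, and the transketolase TKT at 2491 and 915. Both chosen probe sets of TKT were past 2-fold. PAX6, the regulator of eye development, differed less, at 4540 against 3460. The summed value of the 7 genes was 19377 in the limbus, 7105 in the conjunctiva, and 49274 in the cornea. The limbal rim borders the cornea, and the part of adjoining corneal epithelium in these values was not tested.

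Keratins lay on both sides of equality. Of 17 keratin genes measured, a family set after its values were seen, 6 were 2-fold or more above the conjunctiva and 2 as far below it. Besides KRT24, KRT12, and KRT3, these 6 were the suprabasal keratin KRT13, at 5797 in the limbus against 1950, and the epithelial keratins KRT80, at 358 against 142, and KRT23, at 1095 against 523. KRT13 and its partner KRT4, at 2084 against 1122, are keratins of stratified mucosa, and both were above the conjunctiva by 2.97-fold and 1.86-fold. KRT13 is also one of the genes that the study picked for the limbus on these arrays. The keratins of simple and glandular epithelium lay the other way. KRT8 was at 309 against a conjunctival value of 725, and its partner KRT18 at 618 against 1408, both on probe sets open to cross-matching. KRT19 was at 2291 against 4272, and KRT7 at 239 against 370. After scaling to the hybridization controls KRT8 and KRT18 were still lower in the limbus but under 2-fold, with log2 ratios of -0.91 and -0.87. Basal keratins were close to equal or modestly apart. KRT5 was at 6129 and 3293, whereas its partner KRT14 was at 4580 and 5521. KRT15 was at 3159 and 3520, a log2 ratio of -0.16 that became positive after quantile normalization and after scaling to the controls.

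**Figure D3:**
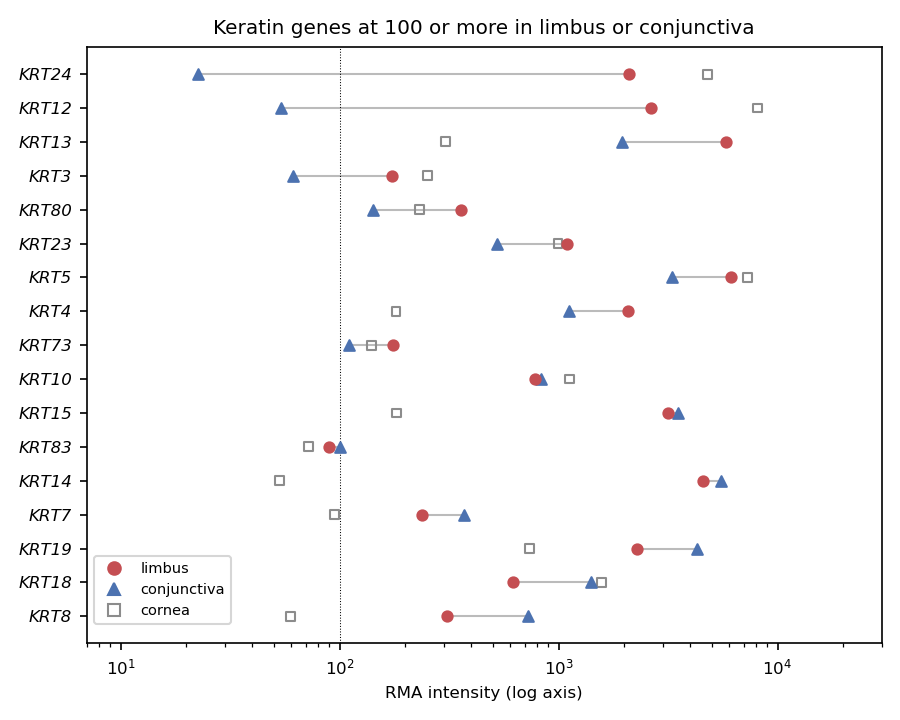
Intensity (horizontal, logarithmic) of the 17 keratin genes measured, ordered by the ratio of limbus to conjunctiva, for the limbus (circles), the conjunctiva (triangles), and the cornea (open squares), 1 array each. KRT24 and KRT12 stand far above the rest at the top, KRT14, KRT15, and KRT10 lie near equality, and KRT8 and KRT18 close the order with higher values in the conjunctiva.

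Most of the suprabasal and junctional genes measured were higher in the limbus. Of 7 cornified envelope and suprabasal genes measured out of 20, 3 were 2-fold or more above the conjunctiva and 0 as far below it, with a median of 0.91. With no minimum level, when more of the list entered, that median was 0.15. SPRR1A, a cross-linked envelope precursor, was at 2801 against 352, a 7.96-fold difference on a probe set open to cross-matching, and SPRR1B was at 1403 against 419. CRNN, the squamous protein cornulin, was at 768 against 574. Among 15 genes of desmosomes and adherens junctions, 5 were 2-fold or more above the conjunctiva and 0 as far below it, and 13 of the 15 were above equality, with a median of 0.66. The desmosomal cadherins led them. DSG1 was at 120 in the limbus against 13.5, DSG3 at 248 against 59.1, and DSC3 at 764 against 216. The second probe set of DSC3 had a log2 ratio of 3.29 beside 1.82. PERP, a membrane protein of desmosomes, was at 3768 against 1695, with 3 chosen probe sets between 1.15 and 2.99. CDH3, P-cadherin of basal epithelial cells, was at 904 against 427. The plaque proteins DSP, at 726 against 431, and JUP, at 928 against 476, did not reach 2-fold, and the catenins CTNNA1 and CTNNB1 had log2 ratios of -0.41 and -0.28. CDH3, CDH6, DSG3, and PERP were named by the study from these same arrays, so their count is not independent evidence of a direction.

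Genes proposed for limbal basal and progenitor cells did not separate the limbus from the conjunctiva as a list. Of 19 measured out of 25, 3 were 2-fold or more above the conjunctiva and 0 as far below it, and the median of -0.16 turned to 0.19 after quantile normalization and 0.16 after scaling to the controls. Summed, the 19 values were 37332 in the limbus and 34976 in the conjunctiva. Those past 2-fold were the connexin GJB6, at 727 against 221, the homeodomain-only protein HOPX, at 4049 against 1789, and CDH3. In the cornea GJB6 was at 2715.5, above the limbus, whereas HOPX and CDH3 were at 1024 and 302, below it. HOPX and CDH3 were selected for the limbus by the study. GPHA2, a glycoprotein hormone subunit, was at 169 against 93.6. The transporter ABCG2, a marker of side population cells, was lower in the limbus, at 75.0 against 124. IGFBP3 was at 3272 and 3604, CEBPD at 1752 and 1976, and ITGA9 at 165 and 185, each within 1.2-fold of equality. TP63 had no probe set with a single symbol and is not analysed here.

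Most pigment cell genes were on the limbal side. Of 13 melanocyte genes measured out of 20, 3 were 2-fold or more above the conjunctiva and 0 as far below it, 10 of 13 were above equality, and the median was 0.45. TYRP1, an enzyme of melanin synthesis, was at 290 against 21.6, a 13.4-fold difference. The melanosome antigen MLANA was at 303 against 113, and the master regulator MITF at 375 against 174. With 32 added to every value MITF was under 2-fold, at a log2 ratio of 0.98. A further MITF probe set, just under 100 in both tissues, was at 95.8 against 99.85. The structural melanosome protein PMEL, at 695 against 420, the transporter OCA2, at 149 against 78.3, and TYR, at 188 against 96.9, did not reach 2-fold. The second member probe set of TYR was at 123 against 25.5. Several other genes of the list were nearer to equality. The transporter SLC45A2 was at 101 and 82.9, SOX10 at 116 and 139, KIT at 1791 and 1607, and RAB27A at 578 and 832. TYR, TYRP1, and MLANA are among the genes that the study chose on these arrays, so this count is no independent evidence either. SOX10 is also a marker of Schwann cells, and their list was mixed. Of 6 nerve and Schwann cell genes measured out of 15, the adhesion molecule NCAM1, at 343 against 103, and the proteolipid MAL, at 401 against 146, were higher in the limbus. The second chosen probe set of NCAM1 had a log2 ratio of 0.35. Further NCAM1 sets, under 100 in both tissues, lay between -0.723 and 0.998. The receptor GFRA3 was higher in the conjunctiva, at 508 against 168. The median was -0.13 and turned to 0.19 after scaling to the controls.

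Genes of the matrix lay on both sides. Of 23 genes of fibrillar and elastic matrix, 4 were 2-fold or more above the conjunctiva and 5 as far below it, with a median of -0.23 that turned to 0.09 under the hybridization scaling. TNC, tenascin C, a matrix glycoprotein of remodeling and of stem cell niches, was at 214 in the limbus against 39.6, a 5.40-fold difference. COL8A1, a short chain collagen of basement membranes, was at 208 against 43.2. The matricellular thrombospondins THBS2, at 400 against 178, and THBS1, at 164 against 77.2, were higher as well. TNC and COL8A1 were chosen by the study. The fibrillar collagens of types I and III were higher in the conjunctiva on their brightest probe sets. COL3A1 was at 1770 in the conjunctiva against 712 in the limbus, COL1A1 at 5589 against 2371, and COL1A2 at 6032 against 2892, although 1 of the 3 probe sets of COL1A2 lay the other way. Fibronectin (FN1) was at 4652 against 2027 and fibulin 2 (FBLN2) at 720 against 314. After quantile normalization COL1A1, COL1A2, and FN1 were under 2-fold, with log2 ratios of -0.88, -0.65, and -0.89, and no gene of the list was at least 2-fold higher in the conjunctiva after scaling to the controls. The collagens of type V and VI lay between -0.40 and 0.23.

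Genes of the corneal stroma and its keratocytes gave 3 of 9 measured at least 2-fold higher in the limbus and 1 in the conjunctiva, with a median of 0.34. TGFBI, an adhesion protein deposited in corneal dystrophies, was at 10399 in the limbus against 3550. PTGDS, a prostaglandin D synthase, was at 2886.5 against 1394, and COL12A1, a collagen that binds to fibrils, at 806 against 353. The small proteoglycan OGN was higher in the conjunctiva, at 129 against 36.0. Keratocan (KERA) was under 100 in both tissues, at 85.3 and 18.5, and so did not enter. Basement membrane genes gave 0 of 16 at least 2-fold higher in the limbus and 2 in the conjunctiva, with a median of -0.21 that turned to 0.11 under the hybridization scaling. The chain COL4A2 of type IV collagen was at 371 in the conjunctiva against 170, and NID2, nidogen 2, at 113 against 44.8. Laminin chains went both ways, with LAMB1 at 227 in the limbus against 123 and LAMC1 at 185 against 290. The anchoring fibril collagen COL7A1 was at 343 against 214 on its first probe set and at 398 against 105 on the other.

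Most goblet cell genes were higher in the conjunctiva. Of 12 measured out of 16, 7 were at least 2-fold higher in the conjunctiva and 1 in the limbus, with a median of -1.40. The gel-forming mucin MUC5AC was at 1618 against 127 on its brightest probe set, a 12.8-fold difference, and its 4 probe sets had log2 ratios from -3.67 to -0.30. The brightest is built of probes that can match other transcripts, and the median over the 4 was -0.96. The trefoil peptide TFF1 was at 1568 against 222, and the disulfide isomerase AGR2, which folds mucins, at 4718 against 595. FCGBP, a mucin-like protein of goblet cell secretion, was at 972 against 154, and the regulator FOXA3 at 155 against 29.8. TFF3 and CREB3L1 complete the 7. SPDEF, the regulator of goblet cell differentiation, was at 277 against 206 and did not reach 2-fold. CLCA2 went the other way, at 277 in the limbus against 34.9, on each of its 3 chosen probe sets. It is known from squamous epithelium rather than goblet cells. The summed value of the 12 genes was 11070 for the conjunctiva against 2728 for the limbus, beside 2521 in the cornea.

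The wider list of conjunctival and mucosal epithelium gave 5 of 15 at least 2-fold higher in the conjunctiva and 1, KRT13, in the limbus, with a median of -0.69. The membrane mucin MUC4 was at 289 in the conjunctiva against 48.5, and both of its chosen probe sets were past 2-fold. MUC20 was at 1409 against 543, and the tight junction protein CLDN10 at 165 against 37.9, and KRT8 and KRT18 complete the 5. Other membrane mucins were closer. MUC16, the large mucin of the ocular surface glycocalyx, was at 922 against 485, and MUC1 at 526 against 472. The epithelial factors ELF3, at 1015 against 1076, and EHF, at 1272 against 1064, were near equality. The sum over the 15 genes was 16360 in the conjunctiva and 15689 in the limbus.

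Lacrimal, serous, and antimicrobial genes had the lowest median of all lists, at -2.03. Of 14 measured out of 22, 10 were at least 2-fold higher in the conjunctiva and 1 in the limbus. Besides SCGB1D1, LCN2, and LTF, these were the tear lipocalin LCN1, at 354 against 44.3, the protease inhibitor WFDC2, at 1032 against 138, and DMBT1, a pattern recognition protein, at 1290 against 251. PIGR, which carries polymeric antibodies across epithelium, was at 3344 against 1028, and lysozyme (LYZ) at 8426 against 3166. The secretoglobins SCGB2A1, at 136 against 25.6, and SCGB3A1, at 1184 against 433, complete the 10. The exception was the elastase inhibitor PI3, a protein of squamous epithelium, at 215 in the limbus against 85.1, but its second probe set lay the other way, with a log2 ratio of -0.21. The summed value was 26358 in the conjunctiva and 6832 in the limbus. Lacritin and LCN1, products of lacrimal glands, were well above their limbal values in the conjunctival sample, and the part of accessory gland tissue in this list was not tested.

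**Figure D4:**
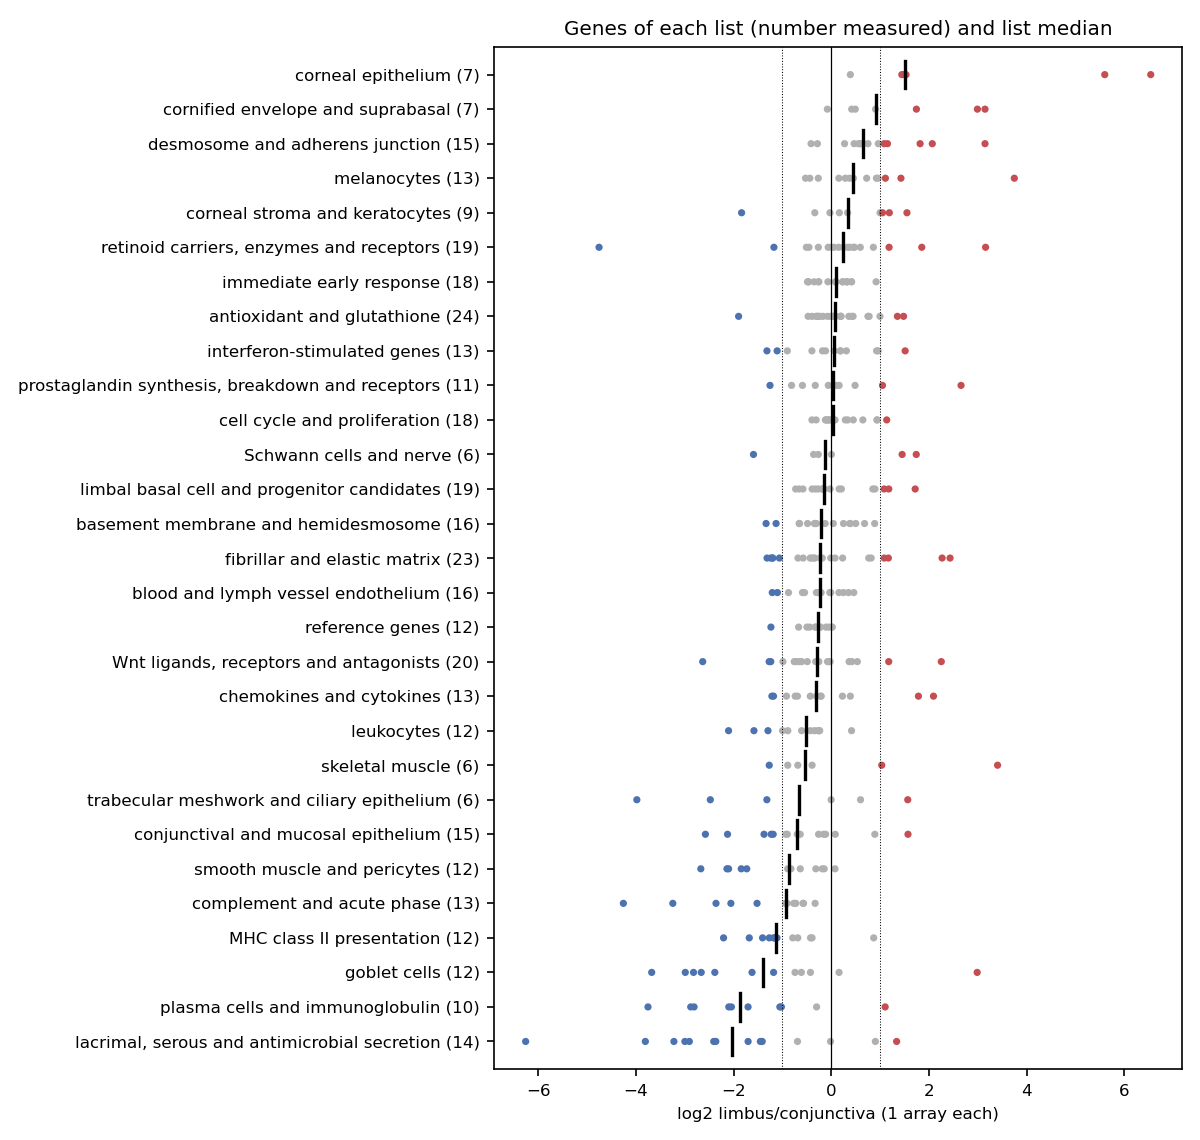
Log2 ratio of limbus to conjunctiva (horizontal) of every measured gene of 29 lists, 1 array per tissue, with the list median as a black bar and the number of genes measured in parentheses. Red points are at least 2-fold higher in the limbus, blue points at least 2-fold higher in the conjunctiva, and gray points between; corneal epithelium has the highest median, at 1.505, and lacrimal, serous and antimicrobial secretion the lowest, at -2.03.

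Immune genes were mostly higher in the conjunctiva. Of 12 genes of MHC class II presentation, 7 were at least 2-fold higher there and 0 in the limbus, with a median of -1.14. HLA-DRB1 was at 5110 in the conjunctiva against 1930, the invariant chain CD74 at 661 against 296, and HLA-DQA1 at 636 against 138. HLA-DPA1 alone was higher in the limbus, at 289 against 158. After scaling to the controls 11 of the 12 remained lower in the limbus, but 3 were at least 2-fold lower. Human HLA probes on monkey alleles, and probes shared between HLA genes, leave the size of each ratio uncertain. Of 10 plasma cell and immunoglobulin genes measured out of 14, 8 were at least 2-fold higher in the conjunctiva and 1 in the limbus, with a median of -1.87. The other 4, JCHAIN, IGHA1, TNFRSF17, and CD38, were under 100 in both tissues. The light chain set IGLC1 was at 5164 against 384, the heavy chain IGHM at 1139 against 155, and IGKC at 748 against 230. The segments share sequence, and the 5 probe sets of IGHM ran from -2.88 to -0.28. Of the measured genes of the list that are not immunoglobulin segments, most lay the same way. The coactivator POU2AF1 was at 189 against 44.3, MZB1 at 173 against 83.3, and the chaperone FKBP11 at 2375 against 576. SDC1, a syndecan that epithelium also makes, was higher in the limbus on 1 of its 2 probe sets, at 619 against 288, and near equality on the other, with 340 against 342.

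General leukocyte genes gave 3 of 12 at least 2-fold higher in the conjunctiva and 0 in the limbus, with a median of -0.52. These were the common antigen PTPRC, at 352 against 81.9, and the T cell antigens CD2, at 234 against 78.1, and CD3D, at 378 against 154. The monocyte genes CD14, at 186 against 157, and CSF1R, at 185 against 153, were close to equal. The complement and acute phase list was below equality in all 13 genes measured, under every scaling, with a median of -0.92 and 5 genes at least 2-fold higher in the conjunctiva. Factor B (CFB) was at 4219 against 1016, ceruloplasmin (CP), a copper oxidase of plasma, at 8871 against 1730, and factor D (CFD) at 203 against 70.9. The regulators CD59, at 3142 against 2108, and CFI, at 561 against 446, were nearer. The 3 chosen probe sets of CP ran from -2.79 to -1.93. Hemoglobin (HBB), a marker of blood, was at 645 in the conjunctiva against 99.6, with all 3 chosen probe sets past 2-fold. A further set, under 100 in both tissues, lay the other way, at 85.4 in the limbus against 63.5. The part of blood in the leukocyte and plasma protein values was not tested.

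Chemokines, cytokines, and interferon-stimulated genes had members on both sides. Of 13 chemokines and cytokines, 2 were at least 2-fold higher in each tissue, with a median of -0.30 that turned to 0.02 under the hybridization scaling. CXCL14, a chemokine made by epithelium, was at 5517 in the limbus against 1292, and its 3 probe sets lay between 1.68 and 2.55. IL1RN, the antagonist of interleukin 1, was at 578 against 168. CXCL17, a mucosal chemokine, was at 3163 in the conjunctiva against 1363, and CXCL9 at 183 against 80.9. The 13 interferon-stimulated genes had a median of 0.06, with IFIT1 at 474 in the limbus against 166, and BST2 and IFI6 at least 2-fold higher in the conjunctiva. Of 18 immediate early genes 0 passed 2-fold in either direction, with a median of 0.10. Of 18 cell cycle genes TOP2A alone passed, at 125 in the limbus against 56.9, with a median of 0.03 for the list. Other TOP2A probe sets, under 100 in both tissues, had log2 ratios of 0.12 and -0.21. Beside 3.88% of all genes, nothing is read from 1 of 18. The proliferation antigen MKI67 was at 165 against 174.

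Most smooth muscle genes were higher in the conjunctiva, and so were most endothelial genes, but by less and not under every scaling. Of 12 smooth muscle and pericyte genes, 5 were 2-fold or more above the limbus and 0 as far below it, with a median of -0.86. Smooth muscle actin (ACTA2) was at 1847 against 431 and the enteric actin ACTG2 at 773 against 122. The myosin MYH11 was at 701 against 160, and both of its chosen probe sets were past 2-fold. MYLK, the kinase that activates smooth muscle myosin, was at 2359 against 347. The pericyte genes RGS5, at 446 against 470, and PDGFRB, at 160 against 145, were near equality. Endothelial genes gave 2 of 16 at least 2-fold higher in the conjunctiva, VWF at 940 against 407 and ROBO4 at 173 against 80.6. At any size of difference 12 of the 16 were higher in the conjunctiva and 4 in the limbus, and the same after quantile normalization. The median of the list was -0.23 and turned to 0.09 under the hybridization scaling. By that scaling 11 of 16 were higher in the limbus, and both VWF and ROBO4 were under 2-fold. PECAM1 was at 675 against 462, and KDR, EMCN, TEK, and TIE1 were above equality in the limbus by 1.12-fold to 1.38-fold. Of 24 skeletal muscle genes 18 were under 100 in both tissues, among them the myosins MYH1 and MYH2 and the actin ACTA1, and the 6 measured had a median of -0.54, which turned to 1.03 at a minimum level of 200. MYBPC1, which binds myosin in slow fibers and was chosen by the study, was nonetheless at 831 in the limbus against 78.4, a 10.6-fold difference. TNNI2, a fast troponin, was at 385 against 188, and MB, myoglobin, at 73.5 against 177.

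Signaling and metabolic lists were mixed, with a few genes far apart. Of 20 Wnt genes, 2 were 2-fold or more above the conjunctiva and 3 as far below it, with a median of -0.29 that turned to 0.03 under the hybridization scaling. The secreted antagonist WIF1 was at 593 in the limbus against 124, a 4.77-fold difference, and the ligand WNT2B at 144 against 63.5. A different set of antagonists was higher in the conjunctiva, SFRP4 at 251 against 40.5 and SFRP2 at 143 against 59.2, with the receptor FZD2 at 487 against 207. The ligand WNT5A was closer, at 1967 against a conjunctival value of 1468. In the prostaglandin list the degrading enzyme HPGD was at 753 in the limbus against 119, and the receptor PTGER4 at 2662 in the conjunctiva against 1117. HPGD was read from a probe set open to cross-matching, and its other sets were under 100. Of the 11 genes measured 2 were past 2-fold on the limbal side, HPGD and PTGDS, and 1 on the conjunctival side, and their median was 0.04, or -0.17 when each gene was read as the median of its probe sets. WIF1 and HPGD are genes that the study chose on these arrays.

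Of 19 retinoid genes, 3 were 2-fold or more above the conjunctiva and 2 as far below it, with a median of 0.24. Besides RBP4, CYP26A1, which degrades retinoic acid, was at 1153 in the limbus against 319, and the dehydrogenase DHRS9 at 418 against 184. RARRES1, above, and the binding protein RBP7, at 132 against 58.4, were higher in the conjunctiva. The nuclear receptors RARA, RARB, RARG, and RXRA lay between 0.06 and 0.48. Of 24 antioxidant genes, 2 were 2-fold or more above the conjunctiva and 1 as far below it, with a median of 0.07. The selenoprotein GPX2 was at 804 against 288 and the quinone reductase NQO1 at 1943 against 759, whereas the glutathione transferase MGST1 was at 179 in the conjunctiva against 48.1 on its brighter probe set, and past 2-fold on both. The list of trabecular meshwork and ciliary epithelium had 6 genes measured out of 12, with 1 past 2-fold on the limbal and 3 on the conjunctival side and a median of -0.66. The matrix protein COCH was at 343 in the limbus against 116. Myocilin (MYOC), a defining gene of the meshwork, was at 173 against 114, and the bicarbonate transporter SLC4A4 was at 1781 in the conjunctiva against 321.

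Other probe sets of the same gene gave the only internal check. They share both arrays, so they test the probes and not the tissues. Only chosen sets were counted, so flat or reversed sets under 100 in both tissues are left out. Sets of a called gene can also enter through the tissue where it is high. The shares below depend in part on that filter. Of the 413 genes higher in the limbus 81 had more than 1 chosen probe set, and 91 of their 108 other probe sets (84.3%) had the same direction, 39 of them at 2-fold or more and 0 at 2-fold the opposite way. Of the 372 higher in the conjunctiva 103 had more than 1, with 141 of 163 other probe sets (86.5%) in the same direction, 80 at 2-fold or more and 1 the opposite way. For genes under 2-fold the share was 59.2%. The remaining 332 genes of the limbus and 269 of the conjunctiva rest on a single chosen probe set. Over 3639 genes with several, the pooled SD of the log2 ratio between probe sets of a gene was 0.407. Some limbal genes had every one of their chosen probe sets well apart in the same direction. They included LGALSL, a galectin-like protein, at 3231.5 against 818, the aldo-keto reductase AKR1C1, at 1609 against 363, and LOX, the enzyme that cross-links collagen, at 245 against 77.4. On the conjunctival side such genes included the Notch target HEY2, at 518 against 122, and the integrin chain ITGA8, at 366 against 86.5. Further sets of AKR1C1, LOX, and ITGA8, under 100 in both tissues, had log2 ratios between -0.31 and 0.81, some of them reversed. Probe sets open to cross-matching by their design read 14 (3.39%) of the limbal genes and 40 (10.8%) of the conjunctival genes, beside 7.70% of all genes.

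**Figure D5:**
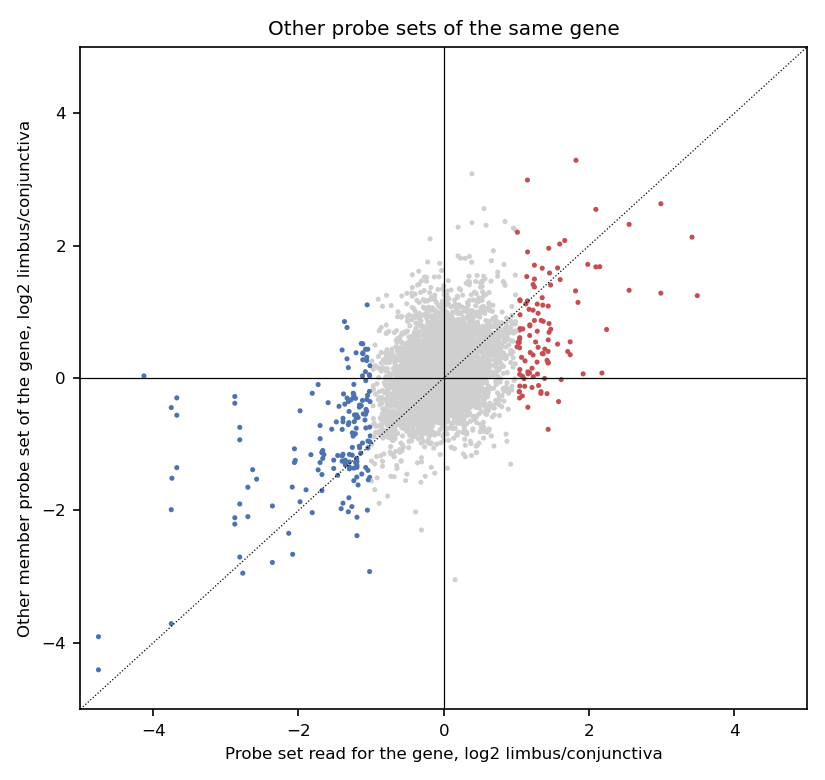
Log2 ratio of limbus to conjunctiva of every further chosen probe set of a gene (vertical) against that of the brightest (horizontal), for 5284 probe sets of 3639 genes. Red and blue mark genes at least 2-fold higher in the limbus and in the conjunctiva by the brightest set; 91 of 108 red and 141 of 163 blue points lie on the same side of 0 as the gene's brightest set, mostly closer to 0.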

How the data were processed

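Total RNA of each tissue was amplified in 2 rounds and hybridized to Affymetrix U133 Plus human arrays. The authors' RMA step took 1 study array at a time with the same outside arrays as reference, and they deposited linear intensities for 54675 probe sets. RMA is named without a version in the submitters' processing notes. The table holds 0 columns of other samples, and precision is limited by having 1 array per tissue. Symbols come from an older platform annotation and were kept as given: 41097 probe sets had 1 symbol, 1801 several, and 11777 are not named here. Ratios, counts, and list medians were computed with Python 3.11.15, numpy 2.4.6, and pandas 2.3.3, tested on simulated data, and plotted with matplotlib 3.10.9. A gene was read from whichever chosen probe set had the highest mean log2 value of limbus and conjunctiva. Without replicates a gene counts as higher at 2-fold. Named genes are the 15 with the largest ratio in each direction, the 10 in each direction with 2 or more probe sets of 1 sign and the largest smallest difference among them, list members past 2-fold or defining a cell type, and genes of the study's text; 151 of 155 were among the chosen. Members, the 29 lists, and this rule were chosen with earlier results of these data known. Alternatives changed the scaling, the minimum level, the pseudocount, the threshold, and the probe set of a gene. No sequence or genome was used here.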

Additional observations from a re-analysis of the deposited data

How the results depend on the processing

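No paired analysis was possible because each tissue has 1 array and no replicate number, and for the same reason no replicate could be left out. Of the gene counts, 413 in the limbus and 372 in the conjunctiva, scaling to the hybridization controls gave 908 and 166, a 1.5-fold threshold 1181 and 1104, a 3-fold threshold 119 and 103, and the demand that every one of at least 2 probe sets pass gave 26 and 40. A pseudocount of 32 gave 268 in the limbus. Of the probe set counts, 636 and 512, the control scaling gave 1474 and 235, a minimum of 200 gave 383 and 334, a 1.5-fold threshold 1920 and 1577, and a 3-fold threshold 159 and 139; the pseudocount gave 373 in the limbus. The other 22 counts stayed within 1.5 times, among them 439 and 348 genes after centering on the median and 405 and 364 after quantile normalization. The control scaling thus moved the split between the tissues toward the limbus. The demand on every probe set could be put only to the 3639 genes with several. Of these, 81 were called in the limbus and 103 in the conjunctiva by the brightest set. The 26 and 40 are therefore read beside 81 and 103, and not beside 413 and 372. Of 146 named genes past 2-fold, 29 fell under it with the control scaling, 16 with the pseudocount, 7 by the median over probe sets, 5 after quantile normalization, and 1 after centering, and among all named genes KRT15 alone changed sign, after quantile normalization and with the control scaling. List medians changed sign for 8 of 29 lists with the control scaling, 2 after quantile normalization, 3 at a minimum of 200, 2 with no minimum, and 2 by the median over probe sets. The signal over background limits the ratios most where 1 tissue lies under 100.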

Other observations

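Further families were read after their values were seen, so their counts describe these arrays only. The aldo-keto reductases of the AKR1 group, which reduce aldehydes and steroids, were higher in the limbus in 4 of 4 genes measured and at least 2-fold in 3, with a median log2 ratio of 1.79. AKR1C2 was at 815 in the limbus against 172, AKR1C1 at 1609 against 363, and AKR1B10 at 188 against 69.7. AKR1C1 and AKR1C2 are near-identical genes whose probes may read both. Among integrins the collagen receptor chain ITGA2 was at 590 in the limbus against 176 and ITGB8 at 215 against 94.4, while ITGA8, at 366 in the conjunctiva against 86.5, and ITGA7, at 152 against 72.4, lay the other way.

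Mucins were not all on the conjunctival side. MUC15, a membrane mucin, was at 1267 in the limbus and 330 in the conjunctiva, beside the gel-forming MUC2 at 81.1 and 429. S100P, a calcium-binding protein of secretory epithelium, was at 1237 in the conjunctiva against 170, and S100A10 at 2530 in the limbus against 1115. Of 181 solute carriers 8 were 2-fold or more above the conjunctiva and 5 as far below it, shares close to the 3.88% and 3.49% of all genes, so nothing is read from the count. The limbal ones included the cationic amino acid transporter SLC7A2, at 918 against 189, the cystine exchanger SLC7A11, at 298 against 98.6, and the ascorbate transporter SLC23A2, at 311 against 86.1. The conjunctival ones included the iron exporter SLC40A1, at 817 against 319, and the chloride cotransporter SLC12A2, at 2494 against 1073. Classical class I HLA genes were higher in the conjunctiva with the class II genes, HLA-B at 8983 against 3513 and HLA-C at 8599 against 3496, although their probes are shared.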
